A study of Mus musculus with 12 samples.

Results

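In mouse embryonic stem cells (mESCs), 4490 peaks of RNA polymerase II phosphorylated at serine 5 of its C-terminal repeats (RNAPII Ser5p) were called, and 563 of them (12.5%) shared not a single base with a peak of NELFA or of Ctr9. These 563 Ser5p peaks without NELFA or Ctr9 are described here. They were picked from the overlap of the called peaks alone, so the Ser5p, NELFA and Ctr9 calls chose them and nothing below tests those calls. Of the other Ser5p peaks, 466 overlapped NELFA only, 2687 overlapped Ctr9 only and 774 overlapped both. These 3 classes are used only to show where the 563 peaks differed.

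The mESCs were of the E14 line, and NIH3T3 cells, an established mouse fibroblast line, served as the second cell type. The study's methods give the same medium, with serum and LIF, for both. Ctr9 carried GFP at its own locus, in a sorted pool of GFP-positive cells of each type rather than in 1 clone, and NELFA carried a GFP-containing tag in a separate mESC line, in which Ser5p was profiled as well. GFP antibody was used for both tagged proteins, and antibodies to the marks themselves for H3K27ac, Ser5p and Ser2p, and the mESC line used for Ser2p is not given in the sources used here. Each ChIP-seq or RNA-seq group was 1 library, so no test between groups was possible, and the intervals given are 95% exact intervals that cover counting error, or for medians the spread between peaks, within a library.

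After initiation, RNAPII carries Ser5p and often pauses a short way into the gene. NELF, of which NELFA is a subunit, holds the paused polymerase, while the Paf1 complex, of which Ctr9 is a subunit, travels with elongating polymerase, whose repeats gain Ser2p. H3K27ac marks active promoters and enhancers. Sequencing depth cannot be read from peak lists, and a missing NELFA or Ctr9 peak means that none was called, not that the protein was absent. The lists held 44748 peaks of Ctr9 and 1980 peaks of NELFA in mESCs, at median folds over background of 3.71 and 4.97. The RNA libraries held 26400407 estimated counts in mESCs and 28849497 in NIH3T3 cells. The cell types carried their markers, with Pou5f1 at a TPM (the transcript abundance, scaled for length and depth) of 1402 in mESCs and listed at 0 in NIH3T3 cells, and Col1a2 at 0.132 TPM in mESCs and 1082 TPM in NIH3T3 cells.

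The 2 highest folds among the 563 peaks lay on copies of the U1 small nuclear RNA gene, whose RNA recognises 5′ splice sites. The highest fold over background, 14.5, was at Gm23238 (chr19:18732741-18732904, plus strand), the second, 8.53, at Gm24136 (chr3:96422733-96422897, plus strand) and a fold of 6.90, exceeded only by these and by the Tra2a start and equal to that of Zfand5, was at another copy, Gm26110 (chr1:171027965-171028129, plus strand, in an intron of Fcgr4). All coordinates are those of mm10 (GRCm38), and sequences are from the GRCm38.p6 reference. Against Rnu1a1 (chr11:87422867-87423030, plus strand), whose own Ser5p peak overlapped both NELFA and Ctr9 at a fold of 21.6, the copies were identical over 97.6%, 92.7% and 93.3% of aligned positions. They are shown 5′ to 3′ because 2 of them carry the highest folds, with the bases that differ from Rnu1a1 in capitals.
Rnu1a1: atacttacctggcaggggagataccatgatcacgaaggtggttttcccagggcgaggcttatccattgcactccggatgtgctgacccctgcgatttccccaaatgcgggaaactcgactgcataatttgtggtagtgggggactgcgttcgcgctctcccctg
Gm23238: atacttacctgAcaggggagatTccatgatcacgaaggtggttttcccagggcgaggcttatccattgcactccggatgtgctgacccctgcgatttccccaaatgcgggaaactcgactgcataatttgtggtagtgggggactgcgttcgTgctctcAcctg
Gm24136: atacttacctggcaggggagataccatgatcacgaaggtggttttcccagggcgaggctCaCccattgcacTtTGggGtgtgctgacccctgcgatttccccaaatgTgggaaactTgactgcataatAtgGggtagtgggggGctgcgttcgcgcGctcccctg
Gm26110: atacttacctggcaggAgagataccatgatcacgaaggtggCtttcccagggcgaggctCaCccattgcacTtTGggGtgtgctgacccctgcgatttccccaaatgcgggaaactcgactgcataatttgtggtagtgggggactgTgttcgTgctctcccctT

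None of the 3 U1 copies had an H3K27ac peak in mESCs, the nearest being 18.8, 7.80 and 109.8 kb away. All of them were listed at 0 TPM in both cell types, but so were Rnu11 and Rnu12, genes of small nuclear RNAs that every cell uses. RefSeq annotates 123 U1 copies on the assembled chromosomes, and 9 had a Ser5p summit within 300 bp. Those 9 were the 3 copies shown, 4 with NELFA only and 2 with both. The 4 with NELFA only had folds from 16.8 to 29.0, above each of the 3 without. Of these 4, Gm26244, Gm24924 and Gm22042 also lacked H3K27ac at the peak, while Gm22513 had it. All 9 lay at 92.7% identity to Rnu1a1 or more, whereas the 114 copies with no Ser5p peak had a median identity of 75.7%. Of these 114, however, 16 reached at least 95%. Reads from near-identical copies can be placed on any of them by the aligner, so the folds of single copies are uncertain. Across all small nuclear RNA genes, 33 had a Ser5p summit within 300 bp, and the 30 outside the 563 peaks were 11 with NELFA only and 19 with both. H3K27ac overlapped the Ser5p peaks of 25 of the 33, among them 6 of the 11 and all 19.

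A second group of the 563 peaks shared one repeated sequence. The grouping was made after the values were seen and gets no test. Of the 563 peaks, 57 had more than 50% lower-case (repeat-masked) bases in the 300 bp around the summit, and 18 of these were joined by 40 or more shared 12-base words, directly or through one another. Of the other Ser5p peaks, 1 joined them, a peak in Pcdh9 of the Ctr9-only class, with a Ser5p fold of 6.44. In all 18, the surrounding sequence repeated itself in tandem with a period of 212 bp (9 peaks) or 214 bp (9 peaks). The letters AAGATGGC, a core of YY1 sites, occurred on either strand within 150 bp of the summit in 13 of 18 peaks and within 3 kb in 17. One period is shown for each of the 3 copies of highest fold that hold these letters near the summit (the fold at Tsc22d2 is shared by further copies), starting at the letters, which are in capitals. The Smarca1 copy (chrX:47866606-47866817, minus strand) lies in an intron, and the copies nearest to Zfp951 (chr5:104894136-104894347, plus strand) and Tsc22d2 (chr3:58277758-58277969, plus strand) lie between protein-coding genes.
Smarca1 copy: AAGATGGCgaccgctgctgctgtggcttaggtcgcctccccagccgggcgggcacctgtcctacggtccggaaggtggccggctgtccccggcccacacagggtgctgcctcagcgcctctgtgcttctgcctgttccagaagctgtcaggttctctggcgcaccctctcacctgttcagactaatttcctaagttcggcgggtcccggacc
Zfp951 copy: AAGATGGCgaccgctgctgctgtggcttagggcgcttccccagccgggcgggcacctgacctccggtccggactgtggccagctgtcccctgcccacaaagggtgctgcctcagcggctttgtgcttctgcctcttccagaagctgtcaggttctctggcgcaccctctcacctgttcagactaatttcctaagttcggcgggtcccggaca
Tsc22d2 copy: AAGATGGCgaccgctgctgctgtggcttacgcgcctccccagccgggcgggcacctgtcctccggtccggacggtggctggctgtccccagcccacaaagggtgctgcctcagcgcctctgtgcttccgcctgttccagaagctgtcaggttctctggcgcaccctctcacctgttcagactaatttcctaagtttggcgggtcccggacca

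The 3 periods were identical over 93.4 to 95.3% of aligned positions. The 18 peaks had folds from 3.16 to 5.99 with a median of 4.35, within the range of the other peaks of their class. In mESCs, H3K27ac overlapped 15 of the 18, at folds from 3.16 to 9.49, and a further pair had an H3K27ac peak 84 and 141 bp away. It overlapped 62.5% of the 261 peaks of their class away from gene starts. In NIH3T3 cells, 0 of the 18 overlapped H3K27ac and 0 overlapped Ctr9. Among the 261 peaks of their class away from gene starts, 26.05% overlapped H3K27ac and 5.75% overlapped Ctr9 in those cells. At so low a share, a count of 0 for Ctr9 does not set the 18 copies apart. The 18 copies lay far from Ctr9 in mESCs. From the nearest Ctr9 peak there, 16 of 18 were more than 10 kb and 13 more than 100 kb away. Of the 57 peaks on assembled chromosomes that lay over 100 kb from both NELFA and Ctr9, 13 were these copies, as were 5 of the 11 peaks on the X chromosome. None was at a gene start, 5 lay in gene bodies and 13 elsewhere. Tandem monomers are known as promoters of mouse LINE-1 retrotransposons, but the reference used here names no repeat family and the copies were not assigned to one. Reads from such copies, too, can be placed on more than 1 of them.

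At gene starts, the 563 peaks were led by Tra2a, a splicing regulator, with a fold of 7.35 at 12 bp past its start. The starts of Plekhf2 and Trim24 are shown because their peaks of high fold reached upstream of the gene, where the sequence holds no annotated exon. Plekhf2, which encodes an endosomal protein, had its summit 131 bp upstream at a fold of 6.68 (shown: chr4:11007928-11008207, minus strand). Trim24, a chromatin reader and ubiquitin ligase, had its summit 252 bp upstream at a fold of 6.02 (shown: chr6:37870409-37870708, plus strand). Capitals mark GC boxes (GGGCGG) and the CCAAT box (CCAAT) on either strand.
Plekhf2: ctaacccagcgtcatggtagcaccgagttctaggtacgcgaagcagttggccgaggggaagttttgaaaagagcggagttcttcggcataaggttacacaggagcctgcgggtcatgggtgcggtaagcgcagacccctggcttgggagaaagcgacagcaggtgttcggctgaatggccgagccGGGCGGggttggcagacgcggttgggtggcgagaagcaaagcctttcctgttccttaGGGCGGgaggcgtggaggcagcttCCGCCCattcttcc
Trim24: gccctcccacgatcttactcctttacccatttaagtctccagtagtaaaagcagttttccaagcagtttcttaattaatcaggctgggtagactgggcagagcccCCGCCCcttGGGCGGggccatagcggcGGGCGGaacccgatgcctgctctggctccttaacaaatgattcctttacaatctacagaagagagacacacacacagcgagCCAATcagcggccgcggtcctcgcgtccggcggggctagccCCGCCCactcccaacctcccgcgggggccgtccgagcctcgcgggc

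The other leading starts held genes of varied function. Zfand5, a zinc-finger gene, had a fold of 6.90 at 42 bp past the start, with a Ctr9 peak 299 bp away. Hspd1 and Hspe1, which encode the mitochondrial chaperonin and its partner and start side by side, shared a peak of fold 6.315. Mdm2 and Trim24 each had a pair of the 563 peaks at the start, with folds of 6.18 and 5.19 at Mdm2 and of 6.02 and 5.13 at Trim24, and so did Plekhf2, whose other peak had a fold of 5.17. Folds from 5.77 to 5.85 were found at Nedd4, Inhbb, Wac and Rpl7l1. Of the 10 genes with the highest folds at the start, 8 had H3K27ac at the peak in mESCs, Trim24 and Inhbb being the exceptions.

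The rule left some peaks close to its edge. The smallest gaps to a NELFA or Ctr9 peak were 2 bp, at the Acp6 start (fold 3.90) and 34.7 kb from Slc2a1 (fold 4.19), and 3 bp, upstream of Mospd3 (fold 3.87). Just outside the rule, overlaps of 3 bp put peaks at Bloc1s3 (fold 3.08) and Ifnar1 (fold 3.22) into the Ctr9-only class. In all, 26 of the 563 peaks lay within 50 bp of a NELFA or Ctr9 peak, and 43 other Ser5p peaks overlapped one by 50 bp or less. Ctr9 was the nearer neighbour: its median gap was 2.78 kb against 241 kb for NELFA. The Ctr9 list was also far longer, at 44748 peaks over 32.75 Mb against 1980 over 0.765 Mb. These gaps thus depend on list size as well as on the sites, and the rule itself used these peaks. Within 1 kb, 236 of the 563 peaks had a Ctr9 peak and 25 a NELFA peak, while 180 had neither within 10 kb. Another Ser5p peak lay within 1 kb of 114 of the 563 (20.2%, interval 17.0 to 23.8%), where 48.3% of all Ser5p peaks had one, with 62.2% for Ctr9 only, 44.3% for both and 8.37% for NELFA only. It was a Ctr9-only peak at 58 of these and another of the 563 at 42.

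Most of the 563 peaks were weak and narrow. Their folds ran from 2.47 to 14.5 with a median of 4.30 (interval 4.19 to 4.34), against medians of 4.60 with NELFA only, 4.53 with Ctr9 only and 7.26 with both. Folds of 6 or more were reached by 13 of the 563, whereas 26.5% of the other Ser5p peaks reached them. Seen the other way, the peaks without NELFA or Ctr9 made up 18.7% of all Ser5p peaks with folds from 4 to 5 but only 1.95% of those from 6 to 8. Median widths were 273 bp in the 563 and 345, 412 and 838.5 bp in the other classes in the same order, and a wider peak has more room to overlap, so width is tied to the rule. The medians of −log10 q were 5.47, 7.70, 7.21 and 21.4. Folds repeated between peaks: the 563 took 250 distinct values, and 24 of them had the same fold of 4.55. The curves of fold by class show the 563 peaks to the left of the other classes above a fold of about 4, and close to the NELFA-only and Ctr9-only curves under it.

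**Figure D1:**
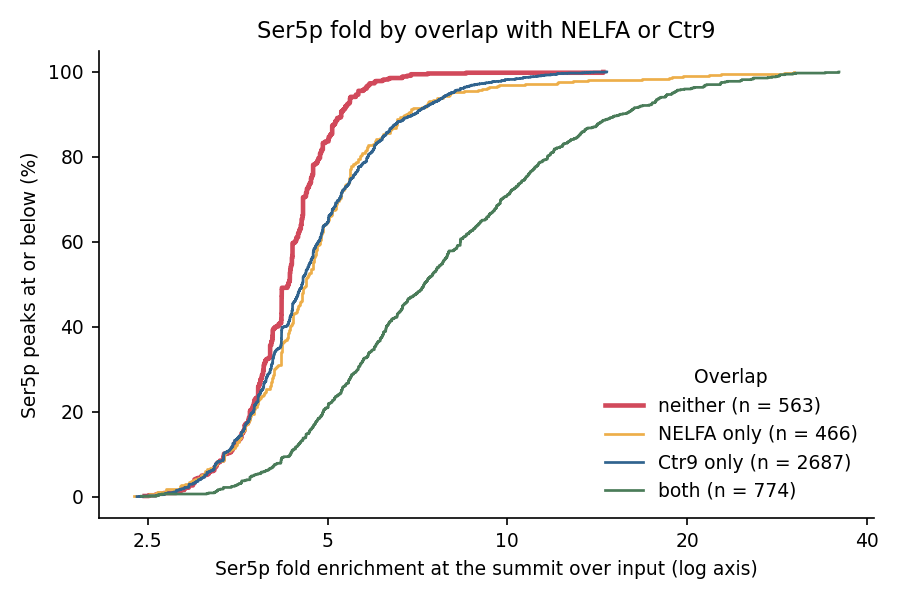
Cumulative share of Ser5p peaks (y axis, %) at or below each Ser5p fold over background (x axis, log scale), 1 line for each of the 4 classes of overlap with NELFA and Ctr9 peaks in mESCs. The line of the 563 peaks with neither has a median of 4.30 and ends at 14.5, and the line of the peaks with both lies far to the right, with a median of 7.26.

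Somewhat more than 50% of the peaks without NELFA or Ctr9 sat at a gene start. Counting summits no farther than 1 kb from a protein-coding gene's start, it was 302 of 563 (53.6%, interval 49.4 to 57.8%), where 38.0% of all 4490 Ser5p peaks did so. The share was 85.0% for peaks with NELFA only, 62.4% with both and 19.5% with Ctr9 only, and none of their intervals reached that of the 563. Gene ends, the last 1 kb before and first 1 kb after, took 5 of the 563 peaks (0.888%), against 448 of the 2687 peaks with Ctr9 only (16.7%). Gene bodies took 114 (20.2%) and the space elsewhere 142 (25.2%, interval 21.7 to 29.0%), where all Ser5p peaks had 25.8% and 25.5%. Gene start windows make up 1.52% of the assembled chromosome length, so the 563 peaks were there 35.4 times as often as an even spread would put them. They were at gene ends 0.622 times and elsewhere 0.4165 times as often. Counting the starts of all annotated transcripts of protein-coding genes raised the share at a start to 62.9%.

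**Figure D2:**
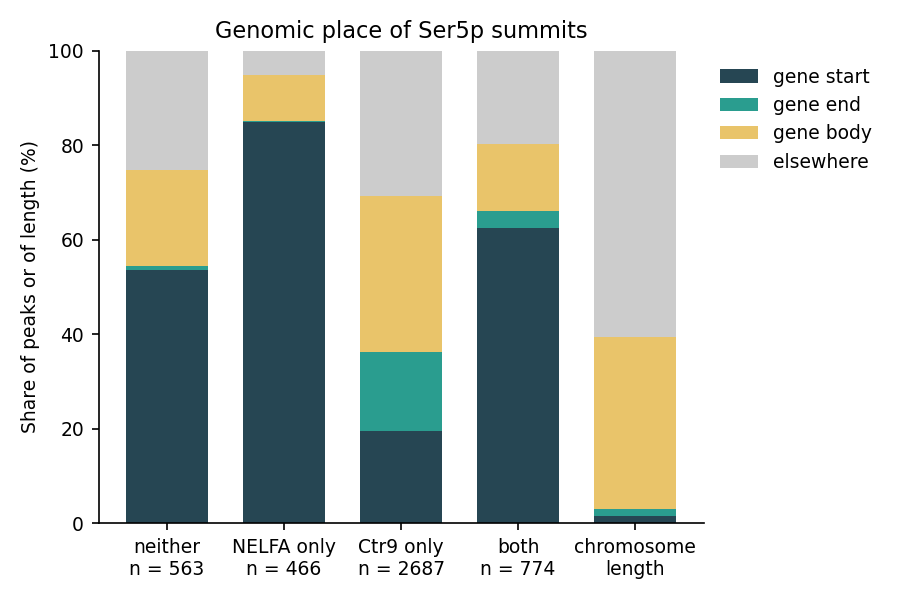
Share (y axis, %) of Ser5p summits within 1 kb of a protein-coding gene start, within 1 kb of a gene end, in the gene body or elsewhere, for the 4 classes of overlap and, in the last bar, for the length of the assembled chromosomes. Gene starts hold 53.6% of the peaks with neither NELFA nor Ctr9, against 85.0% with NELFA only and 19.5% with Ctr9 only.

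Of the 114 peaks in gene bodies, 78 had the summit in an intron, 44 of them in a first intron, and 36 in an exon. The highest fold there after the U1 copy in Fcgr4 was 6.67, in an intron of Fnbp1 (chr2:31060503-31060793), followed by 6.36 in Stag1, which encodes a cohesin subunit, and 5.63 each in first introns of Ror2, a receptor tyrosine kinase, and Nme7. The Fnbp1, Stag1 and Nme7 peaks overlapped H3K27ac and the Ror2 peak did not, its nearest H3K27ac peak being 193 kb away. At gene ends the highest folds were 4.91 at Crygn, a crystallin gene, and 4.55 at Gbx2, a homeobox gene. The other 3 peaks at gene ends lay in Ppp2r3d, Casc1 and Rap2b, with folds from 3.47 to 4.33. The summit in Casc1 lay 611 bp past a gene end, which is thus the end of another gene. Away from any protein-coding gene, the highest folds after the U1 copies were 6.80 upstream of the zinc-finger gene Zfp870, 6.20 in a stretch of 988 bp between Trmt9b and its neighbours, and 5.99 near Garem1, a fold that the repeat copy near Celf4 shared. Among the 141 peaks elsewhere on assembled chromosomes, the median distance to a protein-coding gene start was 31.3 kb, and 109 were over 10 kb away. Starts of other annotated genes took in 31 of the 261 peaks away from protein-coding starts (11.9%), 13 of them lincRNA genes, close to the 11.1% of all Ser5p peaks away from such starts.

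Several of the 563 peaks had the same nearest gene start, which could be far away. The 563 had 508 nearest genes, and 6 of these genes were nearest to 3 or more. Inhbb, which encodes an activin subunit, had 5, with folds from 3.23 to 5.88, and Gbx2 had 4, with folds from 3.49 to 5.09. None of these 9 peaks overlapped H3K27ac. Mycn, a MYC family transcription factor, had 3, 2 of them at its start, and 1 of the 3 overlapped H3K27ac. Peaks 54.2 and 54.8 kb from the Gbx2 start lay inside Agap1. An Inhbb peak lay 119.7 kb and a Mycn peak 154 kb from the start of the gene. Of the Ser5p peaks of other classes, 2 with Ctr9 only were nearest to Inhbb, 1 with NELFA only and 1 with Ctr9 only to Gbx2, and 3 with Ctr9 only to Mycn. Inhbb was at 21.8 TPM in mESCs, Gbx2 at 17.1 TPM and Mycn at 17.95 TPM, and in NIH3T3 cells Inhbb and Gbx2 were listed at 0 and Mycn at 0.715 TPM.

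At the starts, the 302 summits lay mostly just inside the gene. Their median position was 66.5 bp downstream (interval 36.0 to 87.0 bp), and 186 of 302 (61.6%) were downstream of the start. The middle of the NELFA-only class was nearer, at 28.0 bp (interval 13 to 46), and those of the classes with Ctr9 only and with both were at 81.0 and 87.0 bp. Within 100 bp of the start were 97 of the 302 (32.1%), close to the 33.8% of all Ser5p peaks at starts, with 43.7% for NELFA only, 24.6% for Ctr9 only and 36.9% for both. Starts on both strands within 1 kb, whether divergent or facing each other, were found at 33 of the 302 (10.9%, interval 7.64 to 15.0%). That is close to the 11.8% of all 1706 Ser5p peaks at starts. The other classes had 17.2% with NELFA only, 7.81% with Ctr9 only and 12.4% with both.

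**Figure D3:**
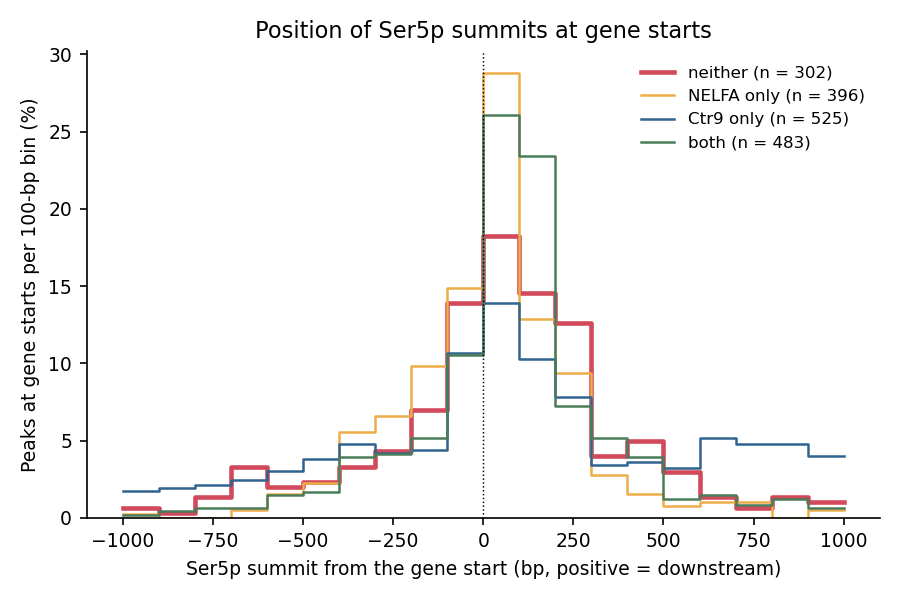
Position of the Ser5p summit from the nearest protein-coding gene start (x axis, bp, positive downstream) as the share of peaks per 100-bp bin (y axis, %), for the peaks at gene starts of each of the 4 classes of overlap. The 302 peaks with neither NELFA nor Ctr9 centre at 66.5 bp, more broadly than those with NELFA only at 28.0 bp.

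H3K27ac covered most of the peaks without NELFA or Ctr9. In mESCs it overlapped 424 of 563 (75.3%, interval 71.5 to 78.8%), where 59.9% of all Ser5p peaks overlapped it. The shares were 87.8% with NELFA only, 89.7% with both and 43.2% with Ctr9 only. At gene starts, H3K27ac overlapped 261 of the 302 (86.4%, interval 82.0 to 90.1%), close to the NELFA-only class at 89.6% (interval 86.2 to 92.5%) and above the Ctr9-only class at 73.1% (interval 69.1 to 76.9%). Over all Ser5p peaks at starts it was 84.8%, within the interval of the 302. Away from starts it overlapped 163 of 261 (62.5%, interval 56.3 to 68.4%) of the 563 and 44.6% of all Ser5p peaks there. By class it was 35.9% with Ctr9 only (interval 33.9 to 38.0%), 77.1% with NELFA only (interval 65.5 to 86.3%) and 84.9% with both (interval 80.2 to 88.8%), so the 563 lay between the classes. Gene ends, with H3K27ac at 12.9% of all Ser5p peaks, held 5 of the 563 but 448 Ctr9-only peaks, which widens this contrast. In gene bodies alone it was 59.65% of the 563, 47.15% of all and 38.5% with Ctr9 only. Elsewhere it was 64.8%, 55.3% and 47.6%. Among the 563, the share with H3K27ac showed no order by Ser5p fold, being 78.4% in the 185 peaks of lowest fold, 72.9% in the 188 next and 74.7% in the 190 of highest fold, with overlapping intervals. It was 66.4% in the 244 peaks within 1 kb of a NELFA or Ctr9 peak (interval 60.1 to 72.3%) and 82.1% in the 319 farther away (interval 77.5 to 86.2%).

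The H3K27ac peaks at the 563 lay between those of the other classes in height. Their median fold was 5.28 over the 424 that overlapped (interval 4.95 to 5.51), against 6.92 with NELFA only, 5.96 with both and 4.045 with Ctr9 only, and 3.975 over all 19417 H3K27ac peaks. At starts the median was 5.88 and away from them 4.29. Among the named starts, Tra2a had an H3K27ac fold of 7.91, Mdm2, the ubiquitin ligase of p53, 7.875, and Zfand5 6.94. The starts of Inhbb and Trim24 had their highest Ser5p peaks outside H3K27ac, Trim24 by 0.083 kb and Inhbb by 116 kb.

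In fibroblasts the 563 sites carried H3K27ac about as often as other Ser5p sites of the same place. In NIH3T3 cells, H3K27ac overlapped 330 of the 563 (58.6%, interval 54.4 to 62.7%), and 47.4% of all Ser5p peaks. At starts it was 262 of 302 (86.75%, interval 82.4 to 90.4%) and away from starts 68 of 261 (26.05%, interval 20.8 to 31.8%), where all Ser5p peaks had 87.5% and 22.8%. By class at starts it was 96.7% with NELFA only (interval 94.45 to 98.2%), 77.3% with Ctr9 only and 91.5% with both. Away from starts it was 67.1% with NELFA only, 17.4% with Ctr9 only (interval 15.8 to 19.1%) and 49.1% with both. In both cell types together, 239 of the 302 start peaks (79.1%) had H3K27ac, and 22 (7.28%) had it in mESCs alone. Away from starts, 58 of 261 (22.2%) had it in both and 105 (40.2%) in mESCs alone. Ctr9 of NIH3T3 cells overlapped 68 of the 563 (12.1%, interval 9.50 to 15.1%), against 34.3% of all Ser5p peaks, 25.5% with NELFA only, 32.5% with Ctr9 only and 61.8% with both. So 12.1% of the sites that lacked a Ctr9 peak in mESCs had one in the other cell type, 53 of these 68 at gene starts. With 1 library for each cell type, cell type and library cannot be told apart.

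**Figure D4:**
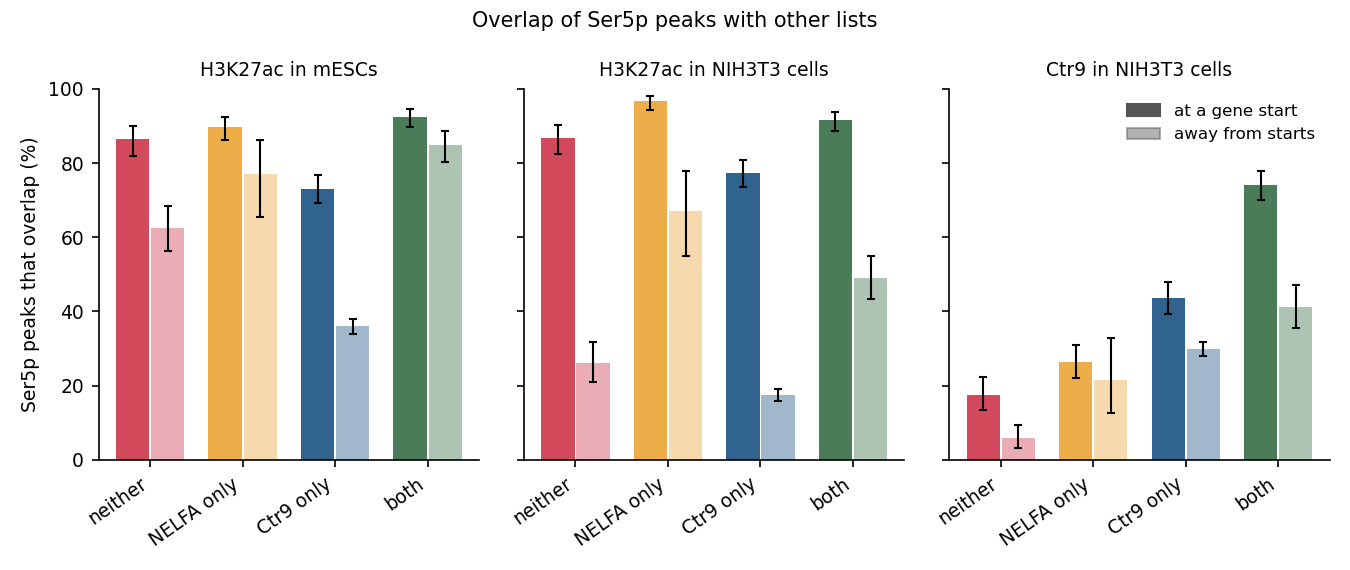
Share of Ser5p peaks (y axis, %) that overlap H3K27ac in mESCs, H3K27ac in NIH3T3 cells and Ctr9 in NIH3T3 cells by 1 bp or more, for the 4 classes of overlap (x axis). Dark bars are peaks at gene starts, pale bars peaks away from them, and lines are 95% exact intervals. The peaks with neither NELFA nor Ctr9 stand at 86.4% and 62.5% for H3K27ac in mESCs.

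Ser2p was not called at any of the 563 peaks. The count of 0 of 563 allows a share of up to 0.533%, while 21.7% of all Ser5p peaks overlapped Ser2p. The NELFA-only class had 0 of 466 as well, and the classes with Ctr9 only and with both had 28.8% and 25.7%. Ser2p and Ctr9 peaks went together in these lists, since 1672 of the 1675 Ser2p peaks (99.8%) overlapped Ctr9, so taking out Ctr9 took out nearly every Ser2p peak that could have overlapped. The nearest Ser2p peak to any of the 563 was 815 bp away, and 37 of them (6.57%) had one within 10 kb.

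The 302 start peaks belonged to 289 protein-coding genes, and nearly all of these genes were expressed. TPM, which is per transcript length, was taken from the highest transcript of a gene. A TPM of at least 1 in mESCs was reached by 281 of the 289 (97.2%, interval 94.6 to 98.8%), where 51.3% of all protein-coding genes reached it, and none of the 289 was listed at 0. The other classes were alike, with 99.2% for NELFA only, 96.0% for Ctr9 only and 95.6% for both. Their median was 25.2 TPM (interval 21.1 to 32.75), against 32.4 TPM for the 390 genes with a NELFA-only peak, 32.75 TPM for 471 with Ctr9 only and 67.3 TPM for 477 with both. The intervals of the first 3 medians overlapped, and that of the last, 51.0 to 77.6 TPM, stood above that of the 289. The top 25% of expressed genes, at 21.7 TPM or more, held 159 of the 289 (55.0%, interval 49.1 to 60.85%) and 18.45% of all protein-coding genes. It held 63.85% of the NELFA-only genes, 60.7% of the Ctr9-only genes and 72.5% of those with both. Across the 289 genes, which share 1 library and are no replicates, Spearman's rho between level and Ser5p fold was 0.0249. At their starts, 27 of the 289 genes also had a Ser5p peak of another class, and leaving these out gave a median of 23.7 TPM.

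**Figure D5:**
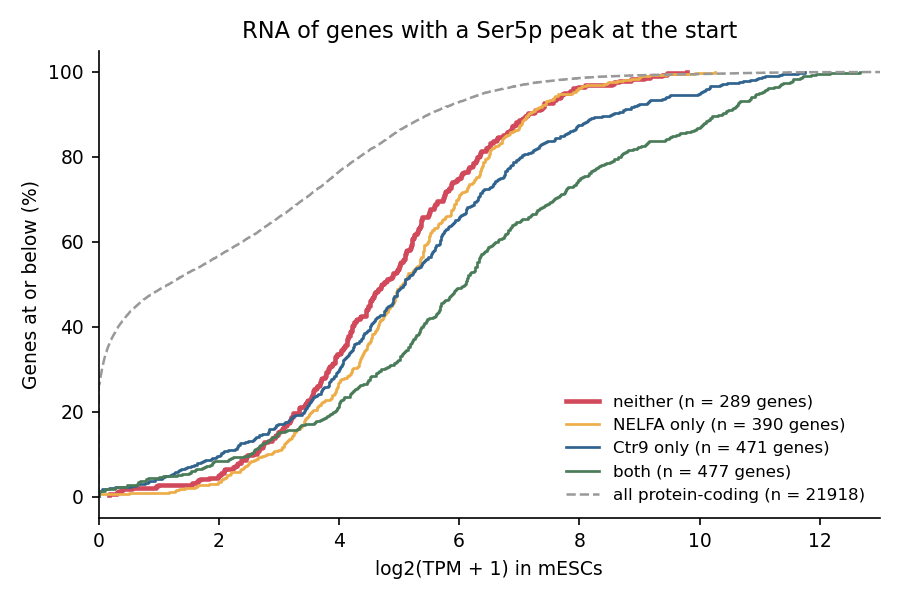
Cumulative share of genes (y axis, %) at or below each RNA level in mESCs (x axis, log2 of TPM plus 1), for protein-coding genes with a Ser5p peak of each of the 4 classes at the start and, dashed, for all protein-coding genes. The 289 genes of the peaks with neither NELFA nor Ctr9 have a median of 25.2 TPM and lie near the NELFA-only and Ctr9-only lines, to the left of the genes with both.

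The most expressed of the 289 genes were H3f3a, which encodes the histone variant H3.3, at 883 TPM, Hspd1, the mitochondrial chaperonin, at 699.8 TPM, and Nedd4, a ubiquitin ligase, at 665.0 TPM. Cct2, a subunit of the cytosolic chaperonin, followed at 575 TPM and Atpif1, an inhibitor of the ATP synthase, at 541 TPM. All of these had H3K27ac at the peak in both cell types, and a Ctr9 peak between 14 and 671 bp away. The lowest were Mill2, an MHC class I-like gene, at 0.123 TPM, Gm9817 at 0.129 TPM, Batf2 at 0.229 TPM, the neurotrophic factor gene Cdnf at 0.257 TPM and the sodium leak channel gene Nalcn at 0.316 TPM. Those 5 were picked after their values were seen, since no gene was listed at 0. The Batf2 peak has its summit in an exon of Arl2, so it lies on that gene as well. H3K27ac lay at each of those 5 peaks, at folds from 4.10 to 10.6, and the nearest Ctr9 peak was 6.51 kb or more away.

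Although no Ctr9 lay under these start peaks, most of the genes had a Ctr9 peak on or beside them. Over the gene body with 1 kb before and 5 kb after, 244 of the 289 genes (84.4%, interval 79.7 to 88.4%) had a Ctr9 peak, where 43.9% of all protein-coding genes had one. Among the 262 genes with no Ser5p peak of another class at the start it was 217 (82.8%). It was 91.0% for the NELFA-only genes (interval 87.7 to 93.7%), and 91.6% for all protein-coding genes in the top 25% of expression. Ser2p lay on 45 of the 289 (15.6%, interval 11.6 to 20.3%), against 16.7% of the NELFA-only and 58.4% of the Ctr9-only genes. It lay on 6.99% of all protein-coding genes but on 21.3% of those in the top 25% of expression, above the interval of the 289. Among the 302 start peaks, 193 had a Ctr9 peak within 10 kb, and it was downstream along the gene for 131 of these (67.9%, interval 60.8 to 74.4%), the same as for the NELFA-only class, with 184 of 269 (68.4%). Within 1 kb the split was 62 downstream of 105.

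By cell type, 206 of the 289 genes were higher in mESCs than in NIH3T3 cells, with 1 library each and so no test. That is 71.3%, where 69.0% of the genes with any Ser5p peak at the start and 59.8% of all genes with at least 1 TPM in mESCs were higher there. At least 10 times higher in mESCs were 22 of the 289, and 1405 of the 11252 protein-coding genes with at least 1 TPM in mESCs. In the other direction, 1 of the 289 was at least 10 times higher in NIH3T3 cells. No share over all genes was counted for that direction, and the 289 were chosen by a peak in mESCs. Plekhf2 was at 109 TPM in mESCs and 4.14 TPM in NIH3T3 cells, Trim24 at 39.5 and 9.34 TPM, and Tra2a at 55.8 and 67.8 TPM.

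Summed over the lists chosen for these cells, 4 of 394 genes (1.02%) had one of the 563 peaks at the start, near the share of all 22028 protein-coding genes, 1.31%. Of 28 pluripotency genes, 16 had a Ser5p peak at the start, and only Jarid2, a Polycomb subunit, had one without NELFA or Ctr9 (fold 3.71), beside a Ctr9-only peak. Of 33 genes of pausing and elongation, 9 had a Ser5p peak at the start, and only Ssrp1, a subunit of the histone chaperone FACT, belonged to the 563 (fold 5.45, 141 TPM). Among 25 fibroblast markers it was Vim, an intermediate filament gene, with a fold of 3.69, 162 TPM in mESCs and 1829 TPM in NIH3T3 cells, and a Ctr9 peak 63 bp away. Among 83 genes matched as cytosolic ribosomal proteins it was Rpl7l1, a relative of them, with a fold of 5.85. Immediate early genes (7 of 27 with a Ser5p peak at the start), housekeeping genes (15 of 30), replication-dependent histone genes (28 of 67), Polycomb targets (1 of 82) and genes of the 2-cell embryo (1 of 19) had none of the 563. All 28 histone genes with a Ser5p peak had it with both NELFA and Ctr9.

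Super-enhancers, the long clusters of enhancers that the study lists for mESCs, held 29 of the 563 peaks (5.15%, interval 3.48 to 7.31%). Of the 231 super-enhancers, 146 had a Ser5p peak and 26 had at least 1 of the 563. Peaks with Ctr9 only lay on super-enhancers in 11.7% (interval 10.5 to 13%), with both in 7.62% and with NELFA only in 0.429%. The highest folds among the 29 were 6.67 in an intron of Fnbp1 and 6.20 near Trmt9b, with a Ctr9 peak 151 bp and 9.69 kb away. Others were picked by gene name and not by fold. They were a peak 109.6 kb from the Sox2 start at a fold of 4.62 and 1 near Klf2 at 4.46. A peak near Prdm14 had a fold of 3.59 and 1 in the first intron of Tet1 had 2.98. The nearest Ctr9 peak was 55 bp away at the Sox2 peak, 1228 bp at Klf2, 5 bp at Prdm14 and 126 bp at Tet1. These super-enhancer peaks thus lacked Ctr9 under the peak itself, not in the surroundings.

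In sequence, the peaks at starts were GC-rich like those of the other classes. Over 300 bp around the summit, the 302 start peaks had a median GC of 63.3% and an observed-to-expected CpG ratio of 0.842, and all 1706 Ser5p peaks at starts had 63.3% and 0.844. A GC of at least 50% with a CpG ratio of at least 0.6 was met by 248 of the 302 (82.1%, interval 77.3 to 86.3%), where all Ser5p start peaks had 79.5%, with 89.4% for NELFA only, 87.2% for both and 63.4% for Ctr9 only. Away from starts it was met by 71 of 260 (27.3%, interval 22.0 to 33.2%), near the 29.9% with both, above the 9.81% with Ctr9 only and below the 55.1% with NELFA only. More than 50% of the window was repeat-masked in 56 of these 260 (21.5%, interval 16.7 to 27%) and in 12.7% of all Ser5p peaks away from starts, with 14.1% for both, 11.7% for Ctr9 only and 4.35% for NELFA only.

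Short motifs were counted on both strands in the same windows, which are as long as the RefSeq promoter windows, and a match says only that the letters are there. The ETS letters CCGGAAG were in 77 of the 302 start windows (25.5%), in 19.7% of all Ser5p start windows and in 8.86% of all RefSeq promoters. Away from starts they were in 31 of 260 (11.9%, interval 8.25 to 16.5%), 10.1% with NELFA only, 7.56% with both and 1.99% with Ctr9 only. The YY1 letters AAGATGGC were in 20 of 260 windows away from starts (7.69%), against 4.35% with NELFA only, 3.09% with both and 2.41% with Ctr9 only, and 13 of these windows belong to the repeat copies above. GC boxes (GGGCGG) were in 57.95% of the start windows and in 56.2% of all Ser5p start windows. TATAAA was in 3.97% (interval 2.07 to 6.84%) and in 7.62% of all, with 4.19% for Ctr9 only, 8.33% for NELFA only and 13% for both. CCAAT was in 23.8% of the 302 start windows (interval 19.1 to 29.1%) and in 30.6% of all, with 36.4% for NELFA only, 29.5% for Ctr9 only and 31.3% for both. The SOX letters CATTGT, the octamer motif of POU factors and a core of the CTCF motif were in 52, 6 and 3 of all 562 windows on assembled chromosomes, and in 10.7%, 1.23% and 0.401% of all Ser5p windows.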

How the data were processed

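ChIP-seq and strand-specific RNA-seq were made from 12 samples, 1 library per group, and 9 had a file used here. The 3 input samples were not analysed here. The authors aligned ChIP-seq reads to mm10 with Bowtie2 2.3.5.1 at default parameters, under which a read that matches several places is put at one of them, removed ENCODE blacklisted regions and called peaks per library with MACS2 2.2.6. Each of the 7 deposited peak lists holds the fold enrichment (a ratio to local background), −log10 p and −log10 q at the summit and a score that restates q. The authors deposited estimated counts and TPM per transcript from kallisto 0.46.1 on GENCODE M19. A gene took the TPM of its highest transcript, with no filter. Gene positions came from GENCODE M21, and sequences and soft-masking from RefSeq GRCm38.p6. Of 22028 protein-coding genes, 21918 had a TPM.

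Peaks sharing 1 bp or more were counted as overlapping. Place was set by the summit, with windows of 1 kb at gene starts and ends, and sequence was read in 300 bp around it. Shares carry exact Clopper-Pearson intervals and medians exact order-statistic intervals, at 95%, and a count of 0 is limited at 3 counts. No test between groups was made. Depth of the peak libraries is not given in the lists. Python 3.11.15, pandas 2.3.3, NumPy 2.4.6, SciPy 1.17.1, Biopython 1.88 and Matplotlib 3.10.9 were used, and the interval code was tested on simulated data (6 of 6 checks passed).

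The peaks described, the gene lists and the motifs were chosen with earlier results of these data known. Named were the 10 peaks and 10 gene starts of highest fold, the 5 of highest fold in each other place, the 5 genes of highest TPM, up to 4 genes per list and the peaks nearest the edge of the rule. The rule also asked for genes listed at 0, and as there were none the 5 of lowest TPM were named instead. Super-enhancer intervals were those listed by the study. Alternatives changed the overlap, the q threshold, the windows, the starts and the TPM of a gene.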

Additional observations from a re-analysis of the deposited data

How the results depend on the processing

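Of 41 values recomputed under another setting, 27 stayed within the interval of the reported value or, for counts, within 1.5 times of it, and 14 moved. The count of 563 became 373 with no NELFA or Ctr9 peak within 500 bp, 319 with none within 1000 bp, and 864 where the Ser5p summit had to lie in neither. With none within 1000 bp, the share at gene starts was 59.6%, the share with H3K27ac 82.1% and the median level 19.7 TPM. The share at gene starts was 45.65% with a window of 500 bp, 58.4% with 2 kb, 62.9% with the starts of all transcripts and 59.15% with genes of any type, the last chosen after seeing the data. H3K27ac covered 59.5% of the summits and lay within 1000 bp of 85.3% of the peaks. The median fold was 4.55 for peaks with −log10 q of at least 5, and the median level was 40.5 TPM when summed over transcripts. Leaving out the repeat copies and small nuclear RNA genes, also chosen after seeing the data, gave 542 peaks, 55.7% at gene starts, 75.5% with H3K27ac and a median fold of 4.29. No paired analysis was possible because each group was 1 library and no test was made. The cause of these shifts was not tested beyond what each setting itself changes. Without replicates, the spread between cultures is unknown, and peaks near the calling threshold could pass or fail with depth, which the lists do not give.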

Other observations

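By chromosome, the peaks without NELFA or Ctr9 were 29 of 131 on chromosome 16 (22.1%, interval 15.35 to 30.2%) and 15 of 304 on chromosome 11 (4.93%, interval 2.79 to 8.01%), against 12.5% overall. These were picked as the ends of the range over the assembled chromosomes, after the values were seen, and no test was made.

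Besides the 18 tandem copies, other groups of peaks with shared repeat-masked sequence held few of the 563. The next 2 groups by number of the 563 held 8 among 86 Ser5p peaks, of which 67 overlapped Ctr9 only, and 7 among 26.

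Slc15a1 and Kif13b were each the nearest gene to 3 of the 563 peaks, 2 of the 3 with H3K27ac at each. No other Ser5p peak was nearest to Slc15a1, while Kif13b had 8 with Ctr9 only and 1 with both. Slc15a1, a peptide transporter gene, was at 12.1 TPM and Kif13b, a kinesin gene, at 20.1 TPM in mESCs.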
